A study of Mus musculus with 12 samples.

Results

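The 10 lipid droplet coat genes were the perilipins Plin1, Plin2, Plin3, Plin4 and Plin5, the CIDE genes Cideb and Cidec, the lipase inhibitor gene Hilpda, and Fitm1 and Fitm2. They were chosen by gene symbol, and all 10 were found among the 54532 genes of the count table. The study sequenced RNA from subcutaneous fat and from liver in male mice, with 3 libraries for each tissue and vector and 12 in all. The null mice carried an empty adeno-associated virus of serotype 8. The hHKDC1 OE mice carried the same virus with human HKDC1, a hexokinase family gene, under the hepatocyte promoter TBG (thyroxine-binding globulin). Both groups were injected at 10 weeks of age and then ate a low-fat diet for 16 weeks, so the fat of hHKDC1 OE mice was exposed to a vector directed at another tissue.

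A lipid droplet is a store of triglyceride and sterol ester that buds from the endoplasmic reticulum under a single layer of phospholipid, and proteins on that layer decide how readily lipases reach the core. Perilipins sit on the surface and gate lipolysis, with Plin1 and Plin4 typical of the fat cell, Plin2 and Plin3 found in most cells, and Plin5 typical of tissues that burn fat. CIDE proteins move lipid between droplets that touch and so make large ones, and the FIT proteins of the endoplasmic reticulum act where droplets form.

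The sample descriptions call replicates 2 and 3 of the hHKDC1 OE group knockouts in each tissue, whereas the titles and treatment labels call them overexpression. They were kept as hHKDC1 OE, and log2 fold changes without them are given for some members. Human HKDC1 was not analysed here, so the vector could not be checked, and mouse Hkdc1 had 0 to 8 counts in the 12 libraries. The libraries held 15496019 to 19954971 counts on genes. The hHKDC1 OE fat libraries held transcripts of lymphocytes: 12 B cell markers summed to 802, 44.5 and 599 CPM (counts scaled to library sizes that TMM had adjusted for composition) in replicates 1, 2 and 3, against 1.87 to 3.23 in null fat. The 10 T cell markers summed to 481, 34.0 and 537 CPM against 5.83 to 13.4. The tissue labels were borne out by the defining markers, since 9 adipocyte markers summed to between 13871 and 21546 CPM in fat against 2940 to 4259 in liver, and 9 hepatocyte markers to between 99051 and 159890 CPM in liver against 564 to 5658 in fat. In liver 2 to 5 of the 9 adipocyte markers had 0 counts per library. All 9 were higher in null fat than in null liver, from 1.54 on the log2 scale for Car3 to 14.51 for Lep. The labels do not say that libraries of the same number came from 1 mouse, and p-values measure the spread between these libraries.

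Levels are given as FPKM, that is fragments scaled by gene length and by size factors over the 12 libraries, which allows genes to be set beside each other. The first question was which coat genes each tissue uses without the transgene. Fat was led by Cidec, Plin4 and Plin1, and liver by Plin2, Fitm1 and Plin5. Between null fat and null liver, 8 of the 10 members passed an adjusted p of 0.05 in edgeR's quasi-likelihood fit (Benjamini-Hochberg adjusted), 4 of them higher in fat and 4 higher in liver. Of all 15259 genes tested, 64.3% passed, 33.8% higher in fat and 30.5% higher in liver, so most genes of any kind differ between these tissues. In bulk tissue, fewer cells of a type and less RNA per cell cannot be told apart.

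The other members lie apart from each other on GRCm38: Plin1 at chr7:79720218-79732903, Plin2 at chr4:86648386-86670060, Cidec at chr6:113424634-113435760 and Fitm2 at chr2:163466379-163472629 on the minus strand, and Hilpda at chr6:29272488-29275446 on the plus strand. Fitm1 at chr14:55575617-55576954 on the plus strand and Cideb at chr14:55754050-55758458 on the minus strand share a chromosome, with 177095 bases between them. Since counting ignored strand, reads in exons shared with a gene on the other strand cannot be assigned. Such exons made up 11.2% of the exonic bases of Fitm1, 5.72% of those of Fitm2 and 0.294% of those of Plin4.

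**Figure D1:**
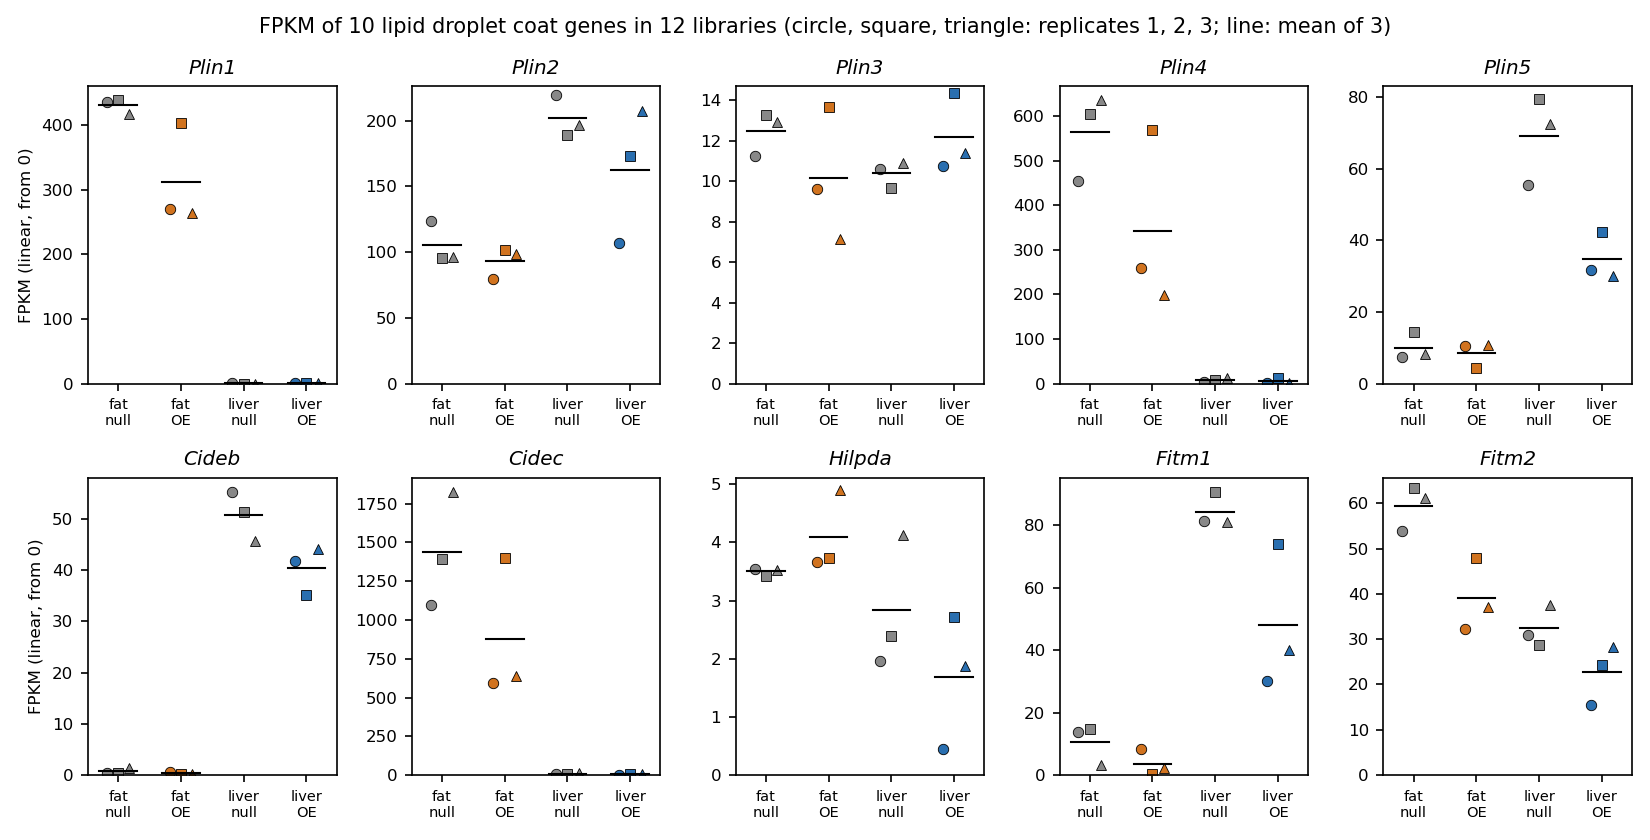
FPKM (linear axes from 0) of each member in the 3 libraries of each group; circles, squares and triangles are replicates 1, 2 and 3 and the line is their mean. Plin1, Plin4 and Cidec lie near 0 in liver and Cideb near 0 in fat, while in hHKDC1 OE fat the square of replicate 2 lies above the other libraries of its group for Plin1, Plin4 and Cidec.

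Cidec, which fuses droplets in the white fat cell, had the highest level of the members in fat. It was at 1094, 1392 and 1828 FPKM in null fat and at 8.58, 6.84 and 12.7 FPKM in null liver, a log2 difference of 7.20 (SE 0.40, edgeR adjusted p = 5.19e-06). Plin4, which coats small new droplets of fat cells, was at 454, 605 and 636 FPKM in null fat and at 3.28, 8.62 and 11.9 FPKM in null liver. Its log2 difference was 6.09 (SE 0.54, edgeR adjusted p = 4.01e-05). For both genes the lowest fat library was far above the highest liver library, and Plin4 varied more between liver libraries than Cidec did.

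Plin1, the perilipin that holds the lipolysis co-activator Abhd5 until the fat cell is stimulated, was at 437, 439 and 418 FPKM in null fat. In null liver it had 6, 0 and 0 counts, and in hHKDC1 OE liver 4, 5 and 4, where 0 counts allow up to 3. The fitted log2 difference of 13.40 (edgeR adjusted p = 6.94e-06) therefore depends on how near-zero counts were treated. Plin1 was the member that lay closest to absence in liver. Fitm2, the FIT protein found in most tissues and prominent in fat, was at 53.8, 63.3 and 61.2 FPKM in null fat and at 31.0, 28.7 and 37.6 FPKM in null liver. Its log2 difference was 0.82 (SE 0.17, edgeR adjusted p = 0.00303), the smallest of the 4 members higher in fat.

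Plin2, the perilipin of most non-fat cells, had the highest level of the members in liver, at 219, 189 and 197 FPKM in null liver against 124, 95.7 and 96.4 FPKM in null fat. The log2 difference was -0.99 (SE 0.18, edgeR adjusted p = 0.00193), where a negative value means higher in liver. That call needs composition-aware scaling: with library size alone, which moved the median log2 difference of all genes from 0.09 to 0.98, Plin2 was at -0.10 with an edgeR adjusted p of 0.610. Plin5, which tethers droplets to mitochondria, was at 55.4, 79.4 and 72.5 FPKM in null liver and at 7.52, 14.5 and 8.14 FPKM in null fat (log2 difference -2.83, SE 0.30, edgeR adjusted p = 9.24e-05). The groups did not overlap for either gene.

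Plin4 and Plin5 are neighbours. Both are on the minus strand of chromosome 17 of GRCm38, Plin4 at chr17:56100591-56109803 and Plin5 at chr17:56111601-56117596, with 1797 bases between them. Plin3 follows 159879 bases further, at chr17:56277476-56292873. Of these 3 neighbouring perilipins, Plin4 was higher in fat, Plin5 was higher in liver and Plin3 did not pass the test. Plin3, which shuttles between the cytosol and new droplets, was at 11.2 to 13.3 FPKM in null fat and at 9.67 to 10.9 FPKM in null liver, a log2 difference of 0.21 (SE 0.13, edgeR adjusted p = 0.177). It passed with upper-quartile normalization at 0.37 (edgeR adjusted p = 0.0358), with at least 10 counts in every library at 0.36 (adjusted p = 0.0365) and with library size alone at 1.10 (adjusted p = 0.000170), and over all alternatives the adjusted p reached 0.426.

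Cideb, which loads lipid onto the lipoproteins that hepatocytes secrete, was at 55.4, 51.3 and 45.8 FPKM in null liver. In null fat it was at 0.333, 0.424 and 1.42 FPKM, from 11, 14 and 52 counts, a log2 difference of -6.16 (SE 0.46, edgeR adjusted p = 1.84e-05). Its level is uncertain because 76.3% of its exonic bases are shared with Nop9 on the opposite strand and the libraries keep no strand. The fat library with the most Cideb was also the one with the most hepatocyte transcripts: summed hepatocyte markers were at 1.21%, 1.24% and 3.62% of the null liver mean in the 3 null fat libraries, and Cideb at 0.629%, 0.822% and 2.63% of its own. Whether these hepatocyte transcripts carried Cideb into the fat libraries was not tested.

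Fitm1, the FIT protein known from skeletal and heart muscle, was at 81.2, 90.7 and 81.0 FPKM in null liver, the second highest of the members there. In null fat it was at 13.9, 14.7 and 3.26 FPKM, a log2 difference of -3.04 (SE 0.50, edgeR adjusted p = 0.000992). The fat libraries also differed in muscle transcripts, as 10 skeletal muscle markers summed to 16505, 20230 and 510 CPM in null fat replicates 1, 2 and 3. In hHKDC1 OE fat they summed to 14851, 1001 and 2453 CPM, where Fitm1 was at 8.34, 0.416 and 2.16 FPKM. The 3 fat libraries with the most muscle transcripts were thus the 3 with the most Fitm1. Hilpda, whose product binds and inhibits the triglyceride lipase Pnpla2, was low in both tissues, at 3.43 to 3.55 FPKM in null fat and 1.96 to 4.14 FPKM in null liver, and these overlapped (log2 difference 0.25, SE 0.36, edgeR adjusted p = 0.568).

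In the order of mean level in null fat, Cidec was followed by Plin4, Plin1, Plin2, Fitm2, Plin3, Fitm1, Plin5, Hilpda and Cideb, and the ranges of Plin3 and Fitm1 overlapped, as did those of Fitm1 and Plin5. In null liver the order was Plin2, Fitm1, Plin5, Cideb, Fitm2, Plin3, Cidec, Plin4, Hilpda and Plin1. There Plin5 overlapped Cideb, Plin3 overlapped Cidec, Cidec overlapped Plin4, and Plin4 overlapped Hilpda. In the main fit Plin3 and Hilpda differed least between the tissues. That depends on the scaling: with library size alone Plin3 was at 1.10 and Plin2 at -0.10. Over the alternatives Hilpda ranged from 0.02 to 1.12.

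The coat can also be read as a makeup of perilipin transcripts within a library. In null fat Plin4 made up 44.0%, 51.8% and 54.3% of the summed FPKM of the 5 perilipins, and Plin1 42.2%, 37.6% and 35.7%. In null liver Plin2 made up 76.0%, 66.0% and 67.4%, and Plin5 19.2%, 27.7% and 24.8%. The summed perilipin FPKM was 1124 ± 78.1 (SD, n = 3) in null fat and 289 ± 2.54 (SD, n = 3) in null liver, so the liver libraries were within a narrow range of each other.

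**Figure D2:**
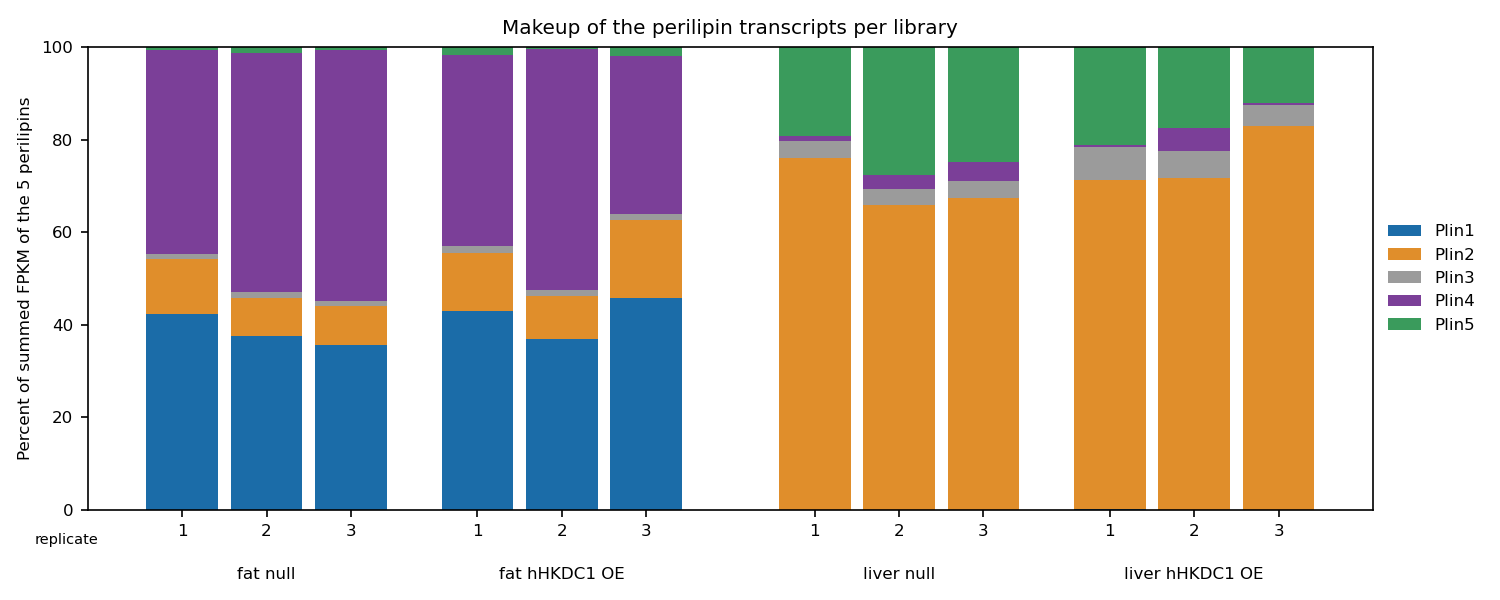
Share in percent of each perilipin in the summed FPKM of Plin1, Plin2, Plin3, Plin4 and Plin5, 1 bar per library. Fat is made up mostly of Plin1 and Plin4 and liver of Plin2 and Plin5, and the Plin4 segment is at 41.3%, 52.1% and 34.2% in the 3 hHKDC1 OE fat libraries.

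The makeup was then compared between vectors. The Plin2 share was 9.48% ± 2.18 (SD, n = 3) in null fat and 13.0% ± 3.85 (SD, n = 3) in hHKDC1 OE fat, a difference of 3.52 percentage points (exact two-sided permutation test, p = 0.2). In liver it was 69.8% ± 5.43 (SD, n = 3) against 75.2% ± 6.61 (SD, n = 3), a difference of 5.47 points (exact two-sided permutation test, p = 0.4). With 3 libraries against 3 this test cannot go below 0.1. Plin3 was the perilipin whose share did not overlap between vectors in either tissue. It took 1.09%, 1.14% and 1.10% in null fat against 1.53%, 1.25% and 1.23% in hHKDC1 OE fat, and 3.67%, 3.37% and 3.73% in null liver against 7.14%, 5.92% and 4.55% in hHKDC1 OE liver. The exact permutation p was 0.1 in each tissue, the smallest possible, and 10 shares were compared. The total against which the share is taken also differed: the summed perilipin FPKM was 766 ± 282 (SD, n = 3) in hHKDC1 OE fat, overlapping null fat (exact permutation p = 0.2), and 214 ± 55.3 (SD, n = 3) in hHKDC1 OE liver, below every null library (exact permutation p = 0.1). Plin3 itself was at a mean of 12.5 FPKM in null fat and 10.1 FPKM in hHKDC1 OE fat, so its share was larger where its mean level was lower.

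In fat, the second question was whether the vector directed at the liver went with another level of the coat genes. Most members were lower in hHKDC1 OE fat, though the groups of all but 3 overlapped and no difference passed the adjusted test: 9 of 10 had a negative log2 fold change and 1, Hilpda, a positive one. The median over the members was -0.49, against -0.05 over the 16380 genes tested, of which 53.9% were negative. It lay between -0.65 and -0.40 with a library left out in turn. By edgeR's quasi-likelihood fit (Benjamini-Hochberg adjusted) 0 members passed, as did 0% of all genes, and DESeq2 and limma called 0 members too. Over all genes DESeq2 called 1301 of 16380, and limma 1 of 20375 on log2(FPKM + 1) and 0 on log2(FPKM + 0.1). At an unadjusted p under 0.05, 1 member, Fitm2, stood beside 17.7% of all genes.

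Fitm2 was at 53.8, 63.3 and 61.2 FPKM in null fat and at 32.3, 47.9 and 37.1 FPKM in hHKDC1 OE fat. Every hHKDC1 OE library lay below every null library, and the log2 fold change was -0.56 (SE 0.18, edgeR unadjusted p = 0.0166, adjusted p = 0.191). Plin1 was at 269.6, 403 and 264 FPKM in hHKDC1 OE fat, again below every null library, with a log2 fold change of -0.42 (SE 0.25, edgeR adjusted p = 0.398). These 2 members were the ones that lay lower without overlap, in FPKM and in TMM-scaled CPM, beside 10.2% of all genes. Hilpda lay higher without overlap, beside 12.5% of all genes, at 3.67, 3.73 and 4.90 FPKM and a log2 fold change of 0.28 (SE 0.27, edgeR adjusted p = 0.584), which was 0.12 without hHKDC1 OE replicate 3.

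Cidec and Plin4 had larger differences and more spread. Cidec was at 596.5, 1401 and 637 FPKM in hHKDC1 OE fat (log2 fold change -0.68, SE 0.39, edgeR adjusted p = 0.391). Plin4 was at 259.6, 568 and 198 FPKM (log2 fold change -0.69, SE 0.41, edgeR adjusted p = 0.406). In both genes replicates 1 and 3 lay below every null library and replicate 2 lay among them. Without hHKDC1 OE replicate 2, 3 members passed in edgeR: Plin4 at -1.22 (adjusted p = 0.0176), Cidec at -1.14 (adjusted p = 0.0254) and Fitm2 at -0.70 (adjusted p = 0.0276), while 3251 of 17190 genes passed. Leaving out any other fat library gave 0 members called, with Plin4 between -0.85 and -0.43, Cidec between -0.86 and -0.48 and Fitm2 between -0.65 and -0.46. Over the alternatives the adjusted p ranged from 0.0176 to 0.725 for Plin4, from 0.0254 to 0.703 for Cidec and from 0.0276 to 0.479 for Fitm2. Leaving out the libraries described as knockouts leaves replicate 1 alone and assumes that it varies like the null libraries. Plin4 was then at -1.04, Cidec at -1.18, Fitm2 at -0.80 and Plin1 at -0.59. Fitm1 was at -0.27 and Cideb at -0.04.

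**Figure D3:**
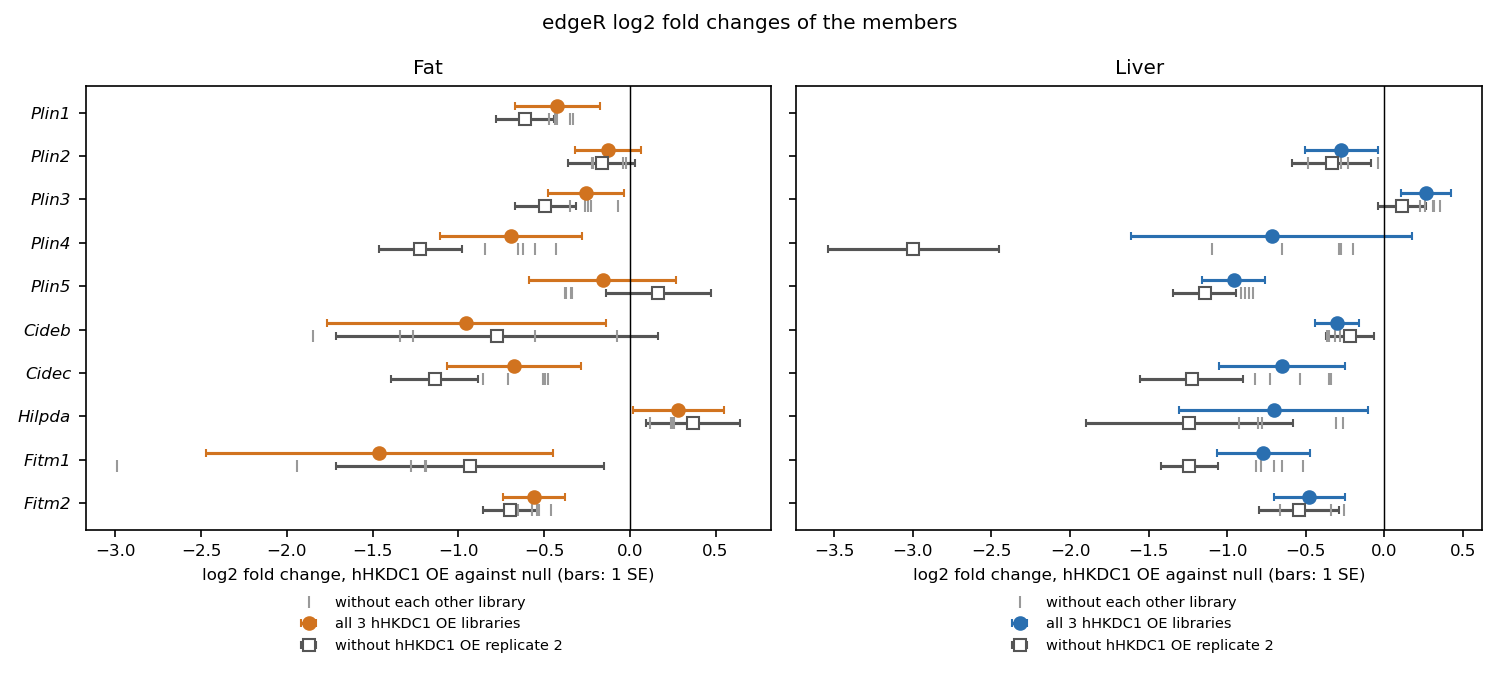
edgeR log2 fold changes (hHKDC1 OE against null, bars 1 SE) of the members in fat and liver, with all libraries (filled circles) without hHKDC1 OE replicate 2 (open squares) and without each other library in turn (grey ticks); Plin1 was not tested in liver. In fat Plin4 moves from -0.69 to -1.22 and in liver from -0.72 to -3.00 when replicate 2 is left out, and in liver the ticks of Plin4 lie between -1.10 and -0.20.

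Replicate 2 also differed from the other hHKDC1 OE fat libraries in its cell type markers. It held 44.5 CPM of B cell markers where replicates 1 and 3 held 802 and 599, and 19331 CPM of adipocyte markers where they held 13871 and 14741. The adipocyte sum is itself made of genes that moved: 7 of its 9 markers were negative in fat and 2 positive (median -0.26). Of these Car3, at -0.64 (SE 0.35), lay lower without overlap. Relative to the summed adipocyte markers, Plin1 was at 10.1%, 9.40% and 8.77% in null fat and at 9.79%, 9.52% and 9.0% in hHKDC1 OE fat, and the groups overlapped. On the same scale Plin4 was at 13.0%, 16.1% and 16.6% in null fat and at 11.7%, 16.7% and 8.37% in hHKDC1 OE fat, so replicates 1 and 3 were still the lowest. Cidec was at 10.1%, 11.9% and 15.3% against 8.65%, 13.2% and 8.65%, and Fitm2 at 1.06%, 1.16% and 1.09% against 1.00%, 0.965% and 1.08%. On this scale the groups overlapped for Cidec, and for Fitm2 as well, which did not overlap in FPKM. All 12 B cell markers and 9 of 10 T cell markers lay higher in hHKDC1 OE fat without overlap, beside 12.5% of all genes. So did 6 of 10 macrophage markers, which summed to 831 to 1283 CPM against 280 to 600 in null fat. The part of these cells in the lower coat gene values was not tested.

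The groups of the remaining members overlapped in fat. Plin2 was at 79.6, 102 and 98.5 FPKM in hHKDC1 OE fat (log2 fold change -0.13, SE 0.19) and Plin3 at 9.62, 13.7 and 7.14 FPKM (log2 fold change -0.26, SE 0.22). With a library left out in turn Plin2 lay between -0.22 (without null replicate 3) and -0.02 (without null replicate 1), and Plin3 between -0.49 (without hHKDC1 OE replicate 2) and -0.07 (without hHKDC1 OE replicate 3). Plin5 was at 10.5, 4.37 and 10.9 FPKM (log2 fold change -0.16, SE 0.43). Plin2 and Plin5 turned to 0.03 and 0.00 with library size alone, which put the median of all genes at 0.11. Plin5 also turned to 0.17 without null replicate 2 and without hHKDC1 OE replicate 2, and to 0.14 without the libraries described as knockouts, so its direction in fat is not settled. Fitm1 had the largest log2 fold change of the members, -1.46 (SE 1.01, edgeR adjusted p = 0.468), and Cideb followed at -0.95 (SE 0.81, edgeR adjusted p = 0.546). Both values moved with single libraries. Fitm1 was at -2.99 without hHKDC1 OE replicate 1 and at -0.93 without hHKDC1 OE replicate 2, where Plin4 and Cidec were lower. Cideb was at -0.08 without null replicate 3, at -1.85 without hHKDC1 OE replicate 1 and at -0.55 without hHKDC1 OE replicate 3. All 9 tested skeletal muscle markers (median -0.91; Tnnc2 was at 0) and all 9 hepatocyte markers (median -1.34) had negative log2 fold changes in fat, beside 53.9% of all genes. The order of the 6 fat libraries by Cideb was not their order by hepatocyte markers, since hHKDC1 OE replicate 1 had 1.07 CPM of Cideb at 1613 CPM of hepatocyte markers and null replicate 1 had 0.478 CPM at 1885. These Cideb values came from 30 and 11 counts, and the source of Cideb in fat was not tested.

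**Figure D4:**
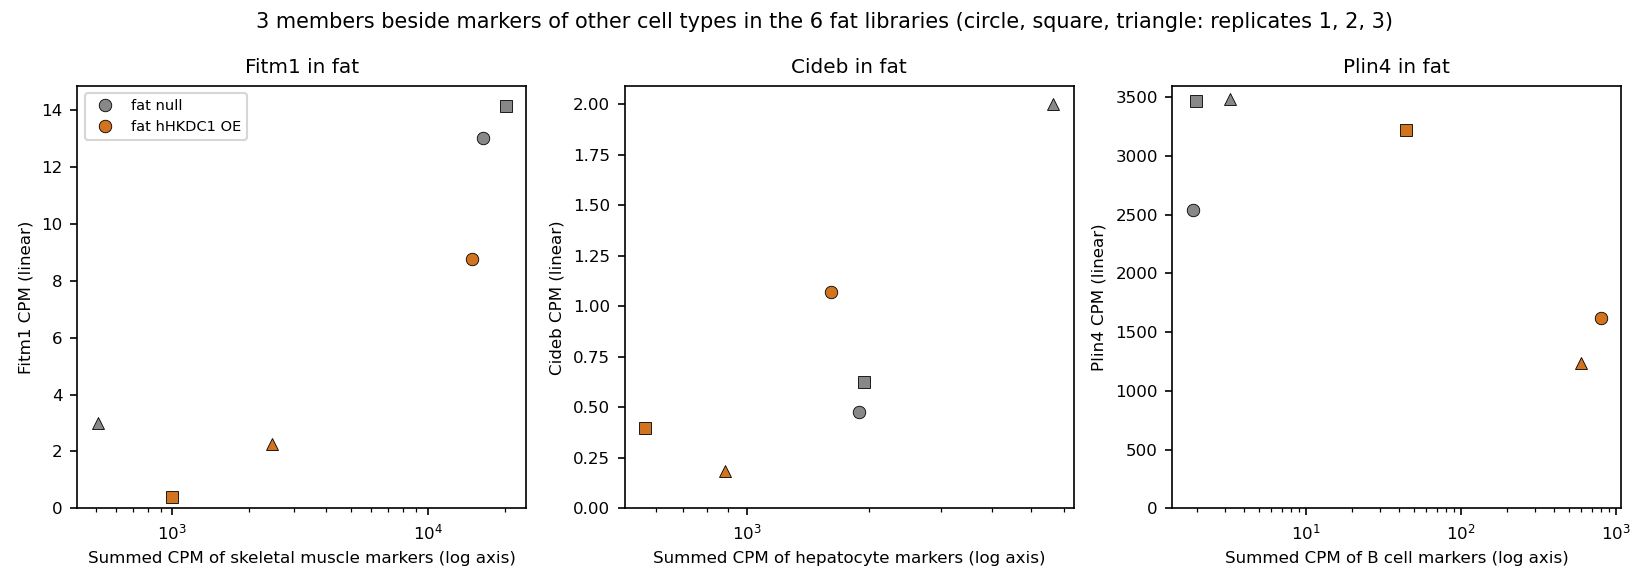
CPM of Fitm1, Cideb and Plin4 (linear axes) in the 6 fat libraries against the summed CPM of skeletal muscle, hepatocyte and B cell markers (log axes); grey is null, orange hHKDC1 OE, and circles, squares and triangles are replicates 1, 2 and 3. Fitm1 is highest in the 3 libraries with 14851 CPM or more of muscle markers, Cideb is highest in the null library with 5658 CPM of hepatocyte markers, and Plin4 is lowest in the 2 hHKDC1 OE libraries with the most B cell markers.

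In liver, where the transgene is expressed, the question was whether the coat genes differ directly. Again most members were lower in hHKDC1 OE, 8 of the 9 tested, with Plin3 the exception and Plin1 below the filter on low counts. The median over the members tested was -0.65, against 0.01 over the 13351 genes tested, of which 48.9% were negative. With a library left out in turn it lay between -1.14 (without hHKDC1 OE replicate 2) and -0.26 (without hHKDC1 OE replicate 1), and at -0.34 without null replicate 3. By edgeR's quasi-likelihood fit (Benjamini-Hochberg adjusted) 0 members passed, as did 0% of all genes, while DESeq2 called 1 member, Plin5, and limma 0. Over all genes DESeq2 called 90 of 13351, and limma 3 of 17817 on log2(FPKM + 1) and 5 on log2(FPKM + 0.1). At an unadjusted p under 0.05, 2 members, Plin5 and Fitm1, stood beside 6.94% of all genes. On the TMM-scaled CPM of that fit Plin5, Cideb and Fitm1 lay lower without overlap, 3 members beside 6.18% of all genes, and 0 members lay higher without overlap beside 6.31%. In FPKM Fitm2 did not overlap either, with its highest hHKDC1 OE library at 28.3 and its lowest null library at 28.7, so its overlap depends on the scaling.

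Plin5 was at 55.4, 79.4 and 72.5 FPKM in null liver and at 31.8, 42.4 and 30.0 FPKM in hHKDC1 OE liver. Its log2 fold change was -0.96 (SE 0.20, edgeR unadjusted p = 0.000877, adjusted p = 0.355), and its p was the 32nd smallest of the 13351. DESeq2 gave it a log2 fold change of -0.96 with an adjusted p of 0.00425. Over 17 alternatives its log2 fold change stayed between -1.14 and -0.84, with adjusted p-values from 6.13e-05 to 0.995. In fat, where Plin5 is a minor perilipin, the ranges overlapped.

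Fitm1 was at 81.2, 90.7 and 81.0 FPKM in null liver and at 30.2, 74.0 and 40.1 FPKM in hHKDC1 OE liver (log2 fold change -0.77, SE 0.29, edgeR unadjusted p = 0.0266, adjusted p = 0.631). Cideb was at 41.9, 35.2 and 44.1 FPKM in hHKDC1 OE liver, just below the null libraries, with a log2 fold change of -0.30 (SE 0.14, edgeR adjusted p = 0.736). The hHKDC1 OE liver libraries also held less of the summed hepatocyte markers, 130374, 116079 and 99051 CPM against 154085 to 159890 in null liver. Of the 9 markers 6 had a negative log2 fold change and 3 a positive one (median -0.16). Only 1, Alb at -0.62 (SE 0.22), lay lower without overlap. The 6 Kupffer cell markers summed to 440, 202 and 203 CPM in hHKDC1 OE liver and to 114, 129 and 204 CPM in null liver. Replicate 1 of hHKDC1 OE stood above the rest and the sums of the groups overlapped. All 6 genes had a positive log2 fold change (median 1.16) and an edgeR unadjusted p under 0.05, beside 6.94% of all genes. Of the 6, 3 lay higher without overlap, beside 6.31% of all genes. Of 10 macrophage markers 9 were positive (median 0.75), 5 of them at an edgeR unadjusted p under 0.05. All 8 endothelial markers were negative (median -0.80), 4 of them at an edgeR unadjusted p under 0.05. The part of these cell types in the coat gene values was not tested.

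Plin4 showed the widest spread of the members in liver. It was at 3.28, 8.62 and 11.9 FPKM in null liver and at 0.621, 12.1 and 1.33 FPKM in hHKDC1 OE liver, so replicate 2 exceeded every null library and replicates 1 and 3 lay below them all. The log2 fold change was -0.72 (SE 0.89, edgeR adjusted p = 0.914). Cidec, at 3.01, 9.50 and 4.88 FPKM in hHKDC1 OE liver, had the same order of libraries, with a log2 fold change of -0.65 (SE 0.40, edgeR adjusted p = 0.820). Hilpda was at 0.454, 2.72 and 1.87 FPKM (log2 fold change -0.70, SE 0.60, edgeR adjusted p = 0.870).

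On CPM scaled over the 12 libraries, replicate 2 was the highest hHKDC1 OE liver library in 7 of the 10 members, Plin1 with its 4 to 5 counts included. In fat it was the highest in 5 of the 10, and in FPKM in Plin2 as well. Without hHKDC1 OE replicate 2, 3 members passed in liver by edgeR, Plin4 at -3.00 (adjusted p = 0.0361), Plin5 at -1.14 (adjusted p = 0.0294) and Fitm1 at -1.24 (adjusted p = 0.0127), while 146 of 13587 genes passed. Leaving out any other liver library gave 0 members called. Without hHKDC1 OE replicate 1 the log2 fold changes were -0.20 for Plin4, -0.04 for Plin2, -0.26 for Hilpda and Fitm2, -0.34 for Cidec and -0.52 for Fitm1. Plin4 was at -0.28 without hHKDC1 OE replicate 3, at -0.29 without null replicate 3 and at -1.10 without null replicate 1. Cidec and Hilpda were at -0.35 and -0.31 without null replicate 3, and at -1.23 and -1.24 without hHKDC1 OE replicate 2 (edgeR adjusted p = 0.146 and 0.579). Leaving out the libraries described as knockouts leaves hHKDC1 OE replicate 1 alone. Fitm1 was then at -1.48, Plin2 at -0.90, Plin4 at -3.67, Plin5 at -1.11 and Cideb at -0.27. Hilpda was at -2.61, Cidec at -1.63, Fitm2 at -1.06 and Plin3 at 0.06. With no filter on low counts 3 members passed, Plin4, Plin5 and Fitm1, while 327 of 24792 genes passed. Over the alternatives the adjusted p ranged from 0.0136 to 1.00 for Plin4 and from 0.00397 to 0.995 for Fitm1.

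Plin2, the main perilipin of liver, was at 107, 173 and 207 FPKM in hHKDC1 OE liver against 189 to 219 in null liver (log2 fold change -0.27, SE 0.23, edgeR adjusted p = 0.869). Fitm2 was at 15.5, 24.4 and 28.3 FPKM against 28.7 to 37.6 (log2 fold change -0.48, SE 0.23, edgeR adjusted p = 0.742). Plin3 was at 10.8, 14.3 and 11.4 FPKM against 9.67 to 10.9 (log2 fold change 0.26, SE 0.16, edgeR adjusted p = 0.815). Plin3 was at 0.11 without hHKDC1 OE replicate 2, and Plin2 at -0.48 without hHKDC1 OE replicate 3. In Plin2 replicate 1 was well below the other hHKDC1 OE libraries and replicate 3 was among the null libraries.

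Whether the response of the coat genes differed between fat and liver was tested with an interaction term fitted to the 12 libraries, with a positive value where the fold change in fat is the higher one. By edgeR's quasi-likelihood fit (Benjamini-Hochberg adjusted) 0 of the 10 members passed, as did 0% of 17070 genes, and 0 members were under an unadjusted p of 0.05 beside 12.7% of all genes. DESeq2 and limma called 0 members as well, while DESeq2 called 493 of the 17070 genes and limma 0 of 20303. The members with the smallest p were Plin5, with a difference of 0.89 (SE 0.50, edgeR adjusted p = 0.487), Plin3 at -0.44 (SE 0.27, edgeR adjusted p = 0.531) and Hilpda at 1.07 (SE 0.71, edgeR adjusted p = 0.562). These values moved with the libraries used. Over the alternatives Plin5 ranged from 0.50 (without fat hHKDC1 OE replicate 3) to 1.33 and Hilpda from 0.63 (without liver hHKDC1 OE replicate 1) to 2.85, the upper ends being without the libraries described as knockouts. Plin3 ranged from -0.87 without fat hHKDC1 OE replicate 2 (edgeR adjusted p = 0.0516) to -0.27 without the libraries described as knockouts. A difference between the tissues in the response of the coat genes was therefore not detected with 3 libraries a group.

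The promoters of 4 members whose values the comparisons turn on are shown to place them beside the lipid-sensing nuclear receptors, since PPAR factors bind a direct repeat of AGGTCA and perilipins are among their known targets. The sequences are the 250 bases before the RefSeq start on GRCm38.p6, 5′ to 3′ on the gene's minus strand, at chr4:86670060-86670309 for Plin2, chr17:56109783-56110032 for Plin4, chr17:56117549-56117798 for Plin5 and chr6:113435761-113436010 for Cidec. Capitals mark exact matches, on either strand, to the receptor half-site AGGTCA, to the hypoxia core ACGTG, to the box CCAAT, or to the box written TATAAA.
Plin2: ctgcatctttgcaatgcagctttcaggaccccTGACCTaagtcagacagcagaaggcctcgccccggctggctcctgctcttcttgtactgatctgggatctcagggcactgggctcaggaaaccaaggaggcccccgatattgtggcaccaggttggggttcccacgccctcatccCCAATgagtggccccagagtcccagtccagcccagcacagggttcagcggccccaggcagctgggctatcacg
Plin4: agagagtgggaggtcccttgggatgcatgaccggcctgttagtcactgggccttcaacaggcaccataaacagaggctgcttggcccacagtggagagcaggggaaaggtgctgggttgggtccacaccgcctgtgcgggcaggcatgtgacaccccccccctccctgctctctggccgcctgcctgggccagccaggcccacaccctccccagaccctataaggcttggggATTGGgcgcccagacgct
Plin5: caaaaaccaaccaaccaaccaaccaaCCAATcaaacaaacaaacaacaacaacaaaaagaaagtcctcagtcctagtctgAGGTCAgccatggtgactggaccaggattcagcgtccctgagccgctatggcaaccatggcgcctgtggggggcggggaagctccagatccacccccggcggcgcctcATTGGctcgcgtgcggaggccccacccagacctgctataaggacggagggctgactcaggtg
Cidec: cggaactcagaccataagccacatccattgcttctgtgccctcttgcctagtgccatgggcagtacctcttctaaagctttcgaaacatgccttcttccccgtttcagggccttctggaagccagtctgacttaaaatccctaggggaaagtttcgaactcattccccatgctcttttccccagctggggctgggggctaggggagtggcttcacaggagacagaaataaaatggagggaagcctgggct
Of 13 promoters listed for the 10 members, 2 held AGGTCA, that of Plin2 and that shown for Plin5, against 14.0% of 32851 promoters of the same length. Plin5 and Cidec each had another promoter listed, which is not shown and held no exact match to these motifs. The full repeat AGGTCANAGGTCA, of which AGGTCA is a part, was in 0 of the 13 and in 0.0335% of all. Plin2 had the closest stretch to it, with 10 of the 12 fixed letters at 225 bases before the start, on the opposite strand, and 3.24% of all promoters held one as close. The CCAAT box was in 4 of the 13, those of Plin2, Plin3, Plin4 and Plin5, and in 33.8% of all. ACGTG, the core of the hypoxia element, was in 1, a promoter of Hilpda, and in 16.6% of all, and TATAAA in 1, that of Cideb, and in 12.4% of all. A match is a description of the letters only.

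The genes around the coat were taken from lists of droplet formation, droplet lipolysis, regulators and PPAR alpha targets. By edgeR's quasi-likelihood fit (Benjamini-Hochberg adjusted) none of their genes passed in fat or in liver. Of the 12 PPAR alpha targets, genes of fatty acid use that the receptor switches on, all 12 had a negative log2 fold change in liver (median -0.73), 5 at an unadjusted p under 0.05 and 6 lower without overlap, beside 48.9%, 6.94% and 6.18% of all genes. Their sum was 6591, 9104 and 10013 CPM in hHKDC1 OE liver and 10885, 12712 and 13493 CPM in null liver, lowest in hHKDC1 OE replicate 1, the library with 440 CPM of Kupffer cell markers. The summed hepatocyte markers were lower as well, at 99051 to 130374 CPM against 154085 to 159890. Their median log2 fold change was -0.16, and 1 of the 9, Alb at -0.62 (SE 0.22), lay lower without overlap. The part of hepatocytes and Kupffer cells in the values was not tested. The lowest PPAR alpha targets were Cyp4a14 at -2.21 (SE 1.00) and Cyp4a10 at -2.17 (SE 0.74), both fatty acid hydroxylases. Among the nearest to 0 was Hadha, of beta-oxidation, at -0.28 (SE 0.15). In fat 9 of the 12 were negative (median -0.43) beside 53.9% of all genes, with Cyp4a14 at -3.35 (SE 0.74) and Cyp4a10 at -3.31 (SE 0.71) lowest and Hadha at 0.08 (SE 0.20) and Ehhadh at 0.23 (SE 0.28) highest. Hepatocyte markers in these fat libraries had a median of -1.34.

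The 15 droplet lipolysis genes were negative in 14 cases in fat (median -0.32) and in 11 in liver (median -0.12), beside the same 53.9% and 48.9% of all genes that also hold for the lists that follow. In fat the lowest were Hsd17b13 at -1.67 (SE 0.47) and Aadac at -1.47 (SE 0.43), both typical of hepatocytes, and the highest Faf2 at -0.07 (SE 0.12) and Hsd17b11 at 0.05 (SE 0.20). In liver the lowest were Pnpla3 at -0.93 (SE 0.78) and Ces1d, a triglyceride hydrolase, at -0.88 (SE 0.21), and the highest were Mettl7a1 at 0.14 (SE 0.17) and Abhd5 at 0.16 (SE 0.18). Between the null tissues Lipe, the hormone-sensitive lipase, was 6.32 higher on the log2 scale in fat (SE 0.28) and Pnpla3 6.09 higher (SE 0.63), while Aadac was at -5.59 (SE 0.46) and Hsd17b13 at -5.38 (SE 0.46). There 14 of the 15 passed, 5 higher in fat and 9 in liver, beside 64.3% of all genes, 33.8% higher in fat and 30.5% in liver.

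The 13 droplet formation genes were negative in 10 cases in fat (median -0.15) and in 11 in liver (median -0.17). In fat Cav1, of caveolae, was at -0.74 (SE 0.38) and Pcyt1a, which makes the phospholipid of the droplet surface, at -0.67 (SE 0.19), and the highest were Aup1 at 0.33 (SE 0.18) and the third CIDE gene Cidea at 1.31 (SE 0.55, edgeR adjusted p = 0.279). The 8 brown fat markers, Cidea among them, summed to 279, 75.8 and 173 CPM in hHKDC1 OE fat and to 77.2, 131 and 50.6 CPM in null fat, with 5 of the 8 at a positive log2 fold change (median 0.80). The 3 fat libraries with the highest sums were also those with the most Plin5, and the part of brown fat cells in either value was not tested. In liver Cav1 was at -0.74 (SE 0.43) and Gpat4 at -0.60 (SE 0.14), and the highest were Dgat1 at 0.04 (SE 0.16) and Tmem159 at 0.67 (SE 0.37). Between the null tissues 10 of the 13 passed, beside 64.3% of all genes. Of the 10, 7 were higher in fat, led by Cav1 at 8.56 (SE 0.38) and Cavin1 at 6.52 (SE 0.25). The other 3 were higher in liver, led by Aup1 at -1.90 (SE 0.15) and Gpat4 at -1.33 (SE 0.19).

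Of 14 regulators, 13 were negative in fat (median -0.21) and 7 in liver (median -0.01). Foxo1 at -0.75 (SE 0.16) and Cebpb at -0.52 (SE 0.18) were lowest in fat and Mlxipl at -0.02 (SE 0.28) and Pparg at 0.05 (SE 0.22) highest. In liver Epas1 at -0.53 (SE 0.17) and Ppara, the receptor of the list above, at -0.40 (SE 0.15) were lowest, and Esrra at 0.27 (SE 0.19) and Mlxipl at 0.60 (SE 0.33) highest. Between the null tissues 8 of the 14 passed, beside 64.3% of all genes, so the regulators did not stand out. Of the 8, 2 were higher in fat, Pparg at 3.21 (SE 0.17) and Ppard at 1.54 (SE 0.20). The other 6 were higher in liver, with Ppara at -3.87 (SE 0.17) and Cebpb at -2.08 (SE 0.16) lowest. Of the 12 PPAR alpha targets 11 passed between the null tissues, 10 higher in liver and 1 in fat. Of all genes 30.5% passed higher in liver and 33.8% higher in fat. Cyp4a10 at -5.71 (SE 0.70) and Acot1 at -5.54 (SE 0.42) were lowest, and Angptl4 at 0.44 (SE 0.21) and Pdk4 at 4.89 (SE 0.41) highest. In the interaction none of these genes passed. The ends of the lists there were Hsd17b13 at -1.42 (SE 0.50), Aadac at -1.26 (SE 0.51), Ces1d at 0.69 (SE 0.33) and Pnpla3 at 0.69 (SE 0.80) for lipolysis. For droplet formation they were Tmem159 at -0.73 (SE 0.34), Dgat2 at -0.45 (SE 0.46), Aup1 at 0.47 (SE 0.23) and Cidea at 1.74 (SE 1.36). For the regulators they were Mlxipl at -0.53 (SE 0.50), Cebpb at -0.41 (SE 0.29), Pparg at 0.23 (SE 0.37) and Epas1 at 0.35 (SE 0.25). For the PPAR alpha targets they were Cyp4a10 at -1.06 (SE 1.14), Cyp4a14 at -1.05 (SE 1.42), Pdk4 at 0.89 (SE 0.57) and Ehhadh at 1.24 (SE 0.38).

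The genes with the most similar pattern were found over the 4 group means of log2 CPM, centred per gene, among 14389 genes with a mean of at least 1 CPM. Plin1 was closest to Adipoq, the adipocyte hormone (distance 0.95 in log2 units), and to Retn (1.08). Plin4 was closest to Trim16 (0.38) and Trabd2b (0.44), and Cidec to Art3 (0.06) and Kcna5 (0.21). Among the 2 genes nearest to Cideb was Apoc4, an apolipoprotein (0.12). Plin5 was closest to Insig2, a brake on sterol synthesis (0.30), and to the pseudogene Gstm2-ps1 (0.31), and Fitm1 to Sema5b (0.42) and Zfp385b (0.49). Plin2 was closest to Pno1 (0.05) and Clcn3 (0.05), Plin3 to Ints8 (0.03) and Arsk (0.04), Fitm2 to 2610037D02Rik (0.07) and S100a16 (0.09), and Hilpda to D730003I15Rik (0.13) and Zmat5 (0.19). The 4 group means carry little information on a gene.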

How the data were processed

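The authors mapped paired reads with STAR (2.5 in the submitters' processing notes, and a later version besides in the methods) and counted fragments per gene with HTSeq 0.6.1 without strand, and the deposited whole-number counts are not normalized. The deposited FPKM values came within 1% of counts divided by gene length and by size factors over the 12 libraries in 100% of 252371 values above 0. The methods name the human genome, but the identifiers are mouse Ensembl genes, 98.2% at the same GENCODE M21 (GRCm38) position. The authors' own fold changes, p-values and group means were deposited too and were not used.

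Each tissue was fitted with edgeR 4.0.16 (quasi-likelihood test, TMM, filterByExpr, Benjamini-Hochberg adjustment, threshold 0.05), after a check on simulated counts with 200 changed genes. Alternatives were DESeq2 1.42.0, limma 3.58.1 on log2(FPKM + 1) and log2(FPKM + 0.1), other scalings and filters, and each library left out. Marker sums used CPM scaled over the 12 libraries, so CPM can be compared between tissues only within that scaling. Members and lists were chosen with earlier results of these data known. All 10 members are described. From each other list the 2 highest and 2 lowest log2 fold changes, and any gene past the threshold in fat or liver, were named. The 2 genes nearest to each member in group means were also named. Some genes that these rules cover are not reported here. A count of 0 allows up to 3. No replicate pair was 1 library counted again (chi-square per gene 21.8 to 173).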

Additional observations from a re-analysis of the deposited data

How the results depend on the processing

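Over 545 alternative values of single members, 524 kept their direction and their side of the threshold. For the interaction these include only Plin3, Plin5 and Hilpda, with 65 values. The interaction alternatives of the other members were not counted. In fat the members called stayed at 0 under DESeq2, limma and each other scaling and filter, and ranged from 0 to 3 as each library was left out. In liver they were 1 with DESeq2, 3 with no filter on low counts, 1 without the libraries described as knockouts (chosen after seeing the data), and 0 to 3 as each library was left out; hHKDC1 OE replicate 2 gave the 3 in each tissue. Between the null tissues 8 were called, and 8 or 9 in the alternatives, though not always the same ones: Plin3 passed under other scalings and with at least 10 counts in every library, where Plin1 was not tested, and Hilpda passed and Plin2 did not with library size alone. In the interaction 0 were called throughout. The log2 fold change of Plin5 in fat was 0.0041 with library size alone and 0.14 without the libraries described as knockouts, and ranged from -0.38 to 0.17 as libraries were left out; that of Plin2 in fat was 0.032 with library size alone. The cause was not tested. The difference in the Plin2 share lay between 1.52 and 5.36 points in fat and between 1.65 and 8.58 in liver with a library left out. Over all genes, DESeq2 called 1301 in fat, 90 in liver and 493 in the interaction where edgeR called 0, no filter gave 803, 327 and 479, and the 12 libraries in one fit gave 876 in fat. Samples of the same number correlated at -0.113 to 0.213 in their deviations, and samples of different numbers at -0.195 to 0.239. Between null fat and null liver the same numbers were at 0.213, 0.0245 and 0.139, and different numbers at -0.175 to 0.0351. Whether the numbers pair the libraries is therefore not settled. With the replicate block 0 members were called in fat, 0 in liver, 8 between the tissues and 0 in the interaction. Over all genes 168 were called in fat, 17 in liver and 6 in the interaction. Counts under 10, as for Plin1 in liver and Cideb in some fat libraries, limit those values.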
